A study of Mus musculus with 18 samples.

Results

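The genes described here are nuclear genes that encode subunits of the 5 complexes of oxidative phosphorylation. They were chosen by gene symbol: Nduf followed by a, b, c, s or v and a digit for complex I, Sdha to Sdhd for complex II, symbols starting with Uqcr for complex III, with Cox4 to Cox8 for complex IV, and with Atp5 for complex V. The rule took 85 of the 22609 genes in the files. Of these, 80 encode subunits: 35 of complex I, 4 of complex II, 8 of complex III, 18 of complex IV and 15 of complex V. Ndufa4 was counted with complex IV, the complex its product belongs to. The other 5, Cox7a2l, Ndufa4l2, Atp5s, Atp5sl and Cox4nb, share the name only and are given separately. Subunits encoded by mitochondrial DNA are not analysed here, and nuclear subunit genes with other symbols, such as Ndufab1, are outside the rule.

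Complexes I to IV pass electrons from NADH and succinate to oxygen, all but complex II pump protons out of the mitochondrial matrix, and complex V, the ATP synthase, uses the returning protons to make ATP. A small set of core subunits in each complex carries the cofactors or the catalytic sites, and many short accessory subunits surround them. Heart is among the organs richest in mitochondria, and several complex IV subunits have one gene for heart and skeletal muscle and another for most other tissues. On a diet of nearly all fat, heart and kidney burn fatty acids and ketone bodies, and liver makes the ketone bodies.

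The mice were wild type on the inbred C57BL/6J background, were put on either of 2 diets at 4 weeks of age and stayed on it for 21 days, and polyadenylated RNA of their hearts, kidneys and livers was sequenced. The ketogenic diet held 90% fat, 9.7% protein and 0.3% carbohydrate, and the other mice ate standard chow. Each organ and diet had 3 libraries, 18 in all, called biological replicates in the labels, which do not say whether animals were pooled, so p-values measure the spread between these samples. Libraries held 16135276 to 23835383 counts. Levels are given as RPKM, estimated counts per kilobase of exon scaled to a common library size over the 18 libraries, and differences as log2 fold changes of ketogenic minus chow.

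Replicates 1 and 2 of the ketogenic hearts, and likewise of the ketogenic livers, differed by little more than counting noise. The chi-square per gene between such a pair had a median of 0.666 (heart) or 0.698 (liver), beside 1.23 to 4.19 in the other 16 pairs of replicates and 0.455 for counting noise by itself. Each such pair was summed and counted as 1 sample, so heart and liver had 2 ketogenic samples against 3 chow samples, and kidney 3 against 3. Values below are printed for each library. Where ketogenic hearts or livers are said to lie apart from chow, their 3 values stand for 2 samples. One chow heart, replicate 3, stood apart: Myl7, an atrial gene, had 47522 counts there and no more than 266 in any other heart library, and the fat cell gene Adipoq had 589 and no more than 6. The brown fat gene Ucp1 had 2558 counts there and no more than 7 in the other hearts. Summed organ markers stood where the labels put them, with 8 ventricular markers at 38445 to 38605 RPKM in ketogenic hearts and 28516 to 38237 RPKM in chow hearts, and at most 3.21 RPKM in any kidney or liver. Kidney epithelial markers summed to 18022 to 26396 RPKM in ketogenic and 15799 to 18343 RPKM in chow kidneys. Because whole tissue was sequenced, fewer cells of a type and less RNA per cell cannot be told apart.

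In liver, 46 of the 75 subunit genes that passed the filter on low counts rose on the ketogenic diet and 2 fell, where 19.2% of all genes tested rose and 17.6% fell (edgeR's quasi-likelihood test, Benjamini-Hochberg adjusted p under 0.05 over all genes tested in the organ). The liver median log2 fold change was 0.44, against 0.0079 over all 13220 genes tested, but it was -0.041 with the length-trend offset, which removes a smooth trend of each library's counts on exon length. With that offset 25 liver subunit genes rose and 14 fell, beside 17.6% and 19.1% of all genes tested. With GC content included as well, 23 rose and 12 fell, beside 14.7% and 16.5%. All 25 and all 23 were among the 46, while 12 of the 46 had a value below 0 with the length-trend offset, none of which passed as lower. With GC content included 12 did, of which Uqcrb passed as lower. Of the 2 that fell without an offset, Cox6b2 passed the low-count filter in liver through the chow libraries alone. Subunit genes are short, with a median exon length of 649 bases against 2280 bases over all genes. The length dependence, with what the offset left of it, is set out after the complexes.

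In kidney, 0 of 78 subunit genes rose and 4 fell, where 3.59% of all genes tested rose and 5.45% fell. Of these 4, Cox4i2 passed the low-count filter in kidney through the chow libraries alone. None of the 78 rose in kidney at an unadjusted p under 0.05 either, by edgeR, and DESeq2 and limma-voom also called 0. The kidney median was -0.21, against 0.0015 over all genes tested, and -0.064 with the length-trend offset, which left 1 that fell, Cox7a1, and 0 that rose, beside 5.34% and 3.9% of all genes tested. The kidney count depended on single libraries. Without ketogenic replicate 1, 10 fell (11.8% of all genes tested), without ketogenic replicate 2, 1 fell (2.47%), and without ketogenic replicate 3, 1 fell (3.03%). Without chow replicate 1, 0 fell (1.85%), without chow replicate 2, 12 fell (3.44%), and without chow replicate 3, 0 fell (2.95%). In each of the 2 fits with 0, edgeR gave 11 that were lower at an unadjusted p under 0.05.

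In heart, 2 of 78 subunit genes rose and 2 fell, where 6.25% of all genes tested rose and 5.81% fell. The heart median was -0.022, against -0.031 over all genes tested, 0.13 with the length-trend offset and -0.16 with scaling by total count, which moved the median of all genes tested to -0.17. With the offset 4 rose, Atp5g2, Sdhc, Ndufa3 and Cox6b2, and 1 fell, Cox6a1, beside 5.44% and 4.75% of all genes tested. Leaving out chow heart replicate 3 gave 7 that rose and 18 that fell, when 28% of all genes tested were called in either direction. Leaving out chow replicate 1 or chow replicate 2 gave 1 in each direction, when 4.87% and 3.36% of all genes were called. Leaving out ketogenic replicate 3 or the summed ketogenic pair gave 0 in each direction, when 0.623% and 0.00708% were called. At an unadjusted p under 0.05, edgeR had 1 higher and 3 lower without ketogenic replicate 3, and 2 higher and 4 lower without the pair. Subunit transcripts took 4.56 to 4.74% of all counts in ketogenic hearts and 4.59 to 5.19% in chow hearts. In kidney they took 2.15 to 2.3% in ketogenic and 2.45 to 2.72% in chow libraries, and in liver 1.24 to 1.34% in ketogenic and 0.975 to 1.06% in chow libraries. The kidney and liver ranges did not overlap between diets, and the heart ranges did.

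**Figure D1:**
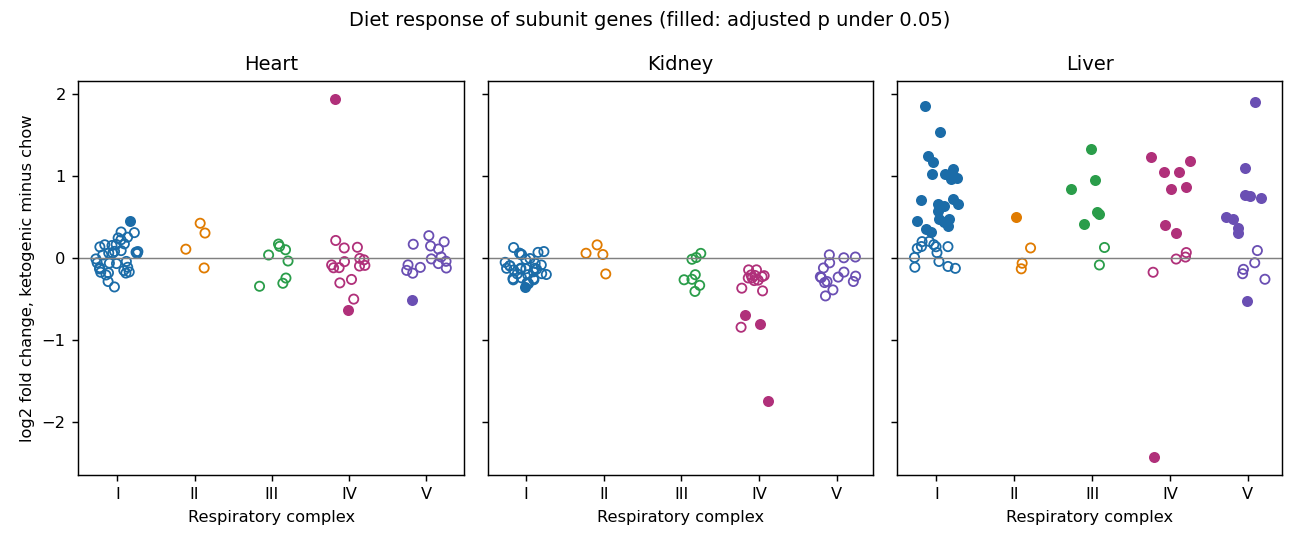
Log2 fold change, ketogenic minus chow, of each subunit gene tested (one point each) by respiratory complex in heart, kidney and liver, filled where the adjusted p was under 0.05. Filled points are 4 in heart, 4 in kidney and 48 in liver, where 46 lie above 0 without the length-trend offset and 25 with it. Cox4i2 in kidney and Cox6b2 in liver, both filled, passed the low-count filter through the chow libraries alone.

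Complex I, NADH dehydrogenase, is the entry point for electrons from NADH. In liver 22 of its 35 genes rose and 0 fell, with a median log2 fold change of 0.45, which became 0.020 with the length-trend offset, when 11 rose and 4 fell. Of the 28 accessory subunit genes 21 rose, and of the 7 core subunit genes 1 rose. With the offset 10 accessory genes rose and 3 fell, and 1 core gene rose and 1 fell, and the difference between the classes was not tested. That core gene was Ndufv2, a flavoprotein-arm subunit with an iron-sulfur cluster, at 0.63. The other core genes had log2 fold changes of -0.11 to 0.20 and did not pass, among them Ndufs1 and Ndufv1, which carry iron-sulfur clusters and the NADH site, at 0.06 and -0.11.

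Ndufa7, an accessory subunit gene, had 375, 396 and 305 RPKM in ketogenic livers and 120.3, 131 and 115 RPKM in chow livers. All 3 ketogenic liver libraries, counted as 2 samples, lay above all chow livers. The log2 fold change was 1.53 (SE 0.11), edgeR adjusted p = 5.77e-06, and 0.90 with the length-trend offset. Ndufb9, an accessory subunit of the membrane arm, had 582, 622 and 480.1 RPKM in ketogenic livers and 225, 248 and 227 RPKM in chow livers. Its groups were also apart, with log2 fold change 1.24 (SE 0.11), edgeR adjusted p = 1.79e-05, and 0.74 with the offset. Ndufb4, another membrane-arm subunit, had the largest fold change of the complex in liver, 1.85, and 1.19 with the offset. Ndufs4, an accessory subunit whose loss in mice is known to cause a Leigh-like encephalopathy, has a longer transcript than most (1534 bases of exon). It had 77.5, 84.6 and 69.2 RPKM in ketogenic livers and 34.6, 37.7 and 35.9 RPKM in chow livers. The groups did not overlap, and the log2 fold change was 1.09 (SE 0.10), edgeR adjusted p = 2.15e-05, against 0.96 with the offset. With the offset, Ndufc1, Ndufa12, Ndufa10 and the core gene Ndufs7 fell in liver, at -0.55, -0.68, -0.34 and -0.42, where without it they had 0.13, -0.12, -0.13 and 0.0014 and did not pass.

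In heart, 1 of the 35 complex I genes passed. Ndufa3, a short accessory subunit gene, had 1126, 1116 and 1214 RPKM in ketogenic hearts and 936, 860.4 and 775 RPKM in chow hearts. The ketogenic hearts were all above the chow hearts, with log2 fold change 0.44 (SE 0.11), edgeR adjusted p = 0.042, and 0.66 with the length-trend offset. The call was lost without ketogenic replicate 3, without the summed pair, without chow replicate 1 and without chow replicate 2, with the adjusted p reaching 0.303 and the log2 fold change staying between 0.38 and 0.51. In liver the same gene had 354, 384 and 315 RPKM in ketogenic livers and 236, 235 and 234 RPKM in chow livers, and rose by 0.57 without the offset, but had -0.11 with it. The 7 core genes had a median of 0.16 in heart and 0.034 in kidney, and none of them passed in either organ (edgeR). In kidney Ndufc1, an accessory membrane subunit gene, was the one that fell, with 142, 146 and 124 RPKM in ketogenic kidneys and 178, 171 and 174 RPKM in chow kidneys. Its groups did not overlap, with log2 fold change -0.36 (SE 0.083), edgeR adjusted p = 0.0293. It had -0.18 with the offset and did not pass, and the call was kept only without ketogenic replicate 1 among the 6 fits that left out 1 library, where the adjusted p reached 0.123.

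Complex II, succinate dehydrogenase, is both a respiratory complex and an enzyme of the citric acid cycle, and its 4 genes have longer transcripts than most of the others. Sdhd, a membrane anchor, was the one that rose in liver, with 277, 281 and 228 RPKM in ketogenic livers and 168, 189 and 191 RPKM in chow livers. The ketogenic livers lay above the chow livers, with log2 fold change 0.50 (SE 0.11), edgeR adjusted p = 0.00509, and 0.31 with the length-trend offset. The call was lost without the summed ketogenic pair. Sdha, the flavoprotein that oxidises succinate, Sdhb, the iron-sulfur subunit, and Sdhc, the other anchor, had liver log2 fold changes of -0.14, 0.12 and -0.069 and did not pass, but Sdhc fell with the offset, at -0.29. In heart Sdha had 631, 639 and 611 RPKM in ketogenic hearts and 501, 503 and 389.5 RPKM in chow hearts, every ketogenic heart above every chow heart. Its log2 fold change of 0.42 (SE 0.14) did not pass (edgeR adjusted p = 0.0911), although it did when all 6 libraries were counted as separate samples. Sdhc in heart, at 0.30, passed with the length-trend offset, at 0.41. In kidney the 4 genes lay between -0.20 and 0.16 and none passed.

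Complex III passes electrons from ubiquinol to cytochrome c. In liver 6 of its 8 genes rose and 0 fell, at a median of 0.54, and at 0.087 with the length-trend offset, when 3 rose and 0 fell. With GC content included 3 rose and 1 fell, at a median of 0.16. The one that fell was Uqcrb, a subunit that binds ubiquinone, which had 219, 257 and 231 RPKM in ketogenic livers and 163, 186 and 189 RPKM in chow livers. It rose without an offset, with log2 fold change 0.41 (SE 0.10), edgeR adjusted p = 0.0083, had -0.19 with the length-trend offset and did not pass, and had -0.41 with GC content included, edgeR adjusted p = 0.017. Uqcrh, the acidic hinge subunit, had 491, 515 and 379 RPKM in ketogenic livers and 165, 199 and 172 RPKM in chow livers. Each ketogenic liver was above every chow liver, with log2 fold change 1.33 (SE 0.13), edgeR adjusted p = 3.76e-05, and 0.75 with the offset. Uqcr10, a small accessory subunit, had 470.2, 497 and 397 RPKM in ketogenic livers and 215, 253 and 234 RPKM in chow livers. Its groups did not overlap, with log2 fold change 0.94 (SE 0.11), edgeR adjusted p = 9.9e-05, and 0.28 with the offset. Uqcrc2, a core protein, rose with and without the offset, at 0.49 and 0.56. Uqcrc1, the other core protein, and Uqcrfs1, the Rieske iron-sulfur protein, had -0.09 and 0.12 and did not pass. In heart and kidney none of the 8 passed, and Uqcrh and Uqcr10 had -0.31 and -0.35 in heart and -0.41 and -0.34 in kidney.

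Complex IV, cytochrome c oxidase, reduces oxygen to water. Of its 11 general subunit genes 8 rose in liver and 0 fell, at a median of 0.84, at 0.21 with the length-trend offset, when 5 rose and 3 fell, and at -0.17 with GC content included. Cox7b, a small subunit on a longer transcript (1001 bases of exon), had 299, 327 and 288 RPKM in ketogenic livers and 129, 139.8 and 126 RPKM in chow livers. The ketogenic livers were all above the chow livers, with log2 fold change 1.22 (SE 0.096), edgeR adjusted p = 7.45e-06, and 0.93 with the offset. Ndufa4, the subunit once assigned to complex I, had 918, 978 and 836 RPKM in ketogenic livers and 384, 421 and 396 RPKM in chow livers. It also showed no overlap, with log2 fold change 1.18 (SE 0.10), edgeR adjusted p = 1.14e-05, and 0.57 with the offset. Cox4i1, the largest nuclear-encoded subunit, had 1068, 1079 and 906 RPKM in ketogenic livers and 586, 578 and 523 RPKM in chow livers. All ketogenic values again lay above the chow values, with log2 fold change 0.84 (SE 0.11), edgeR adjusted p = 0.000178, and 0.37 with the offset. Cox5a, Cox6a1 and Cox8a did not pass, at 0.0063, -0.018 and 0.061, and fell with the offset, at -0.46, -0.60 and -0.51. In kidney all 11 had negative log2 fold changes, from -0.41 to -0.15, and none passed. With the offset the kidney range was -0.33 to 0.011.

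The 7 tissue isoform genes of complex IV are Cox6a2, Cox7a1 and Cox8b, used in heart and skeletal muscle, Cox4i2, known from lung and from low oxygen, and Cox6b2, Cox7b2 and Cox8c, known mainly from testis. Their partners in most tissues are Cox6a1, Cox7a2, Cox8a, Cox4i1, Cox6b1 and Cox7b. Cox6a2, Cox7a1 and Cox8b had high levels per length in heart and low ones in liver. Cox6a2 (chr7:135348949-135349880, mm9) had 1682, 1699.9 and 1883 RPKM in ketogenic hearts and 1560.2, 1609.9 and 1454 RPKM in chow hearts, at most 3.08 RPKM in any kidney library and at most 0.286 RPKM in any liver library. Cox7a1 (chr7:30969190-30971049, mm9) had 1812, 1821 and 1956 RPKM in ketogenic hearts and 2126, 1899 and 2034 RPKM in chow hearts. Cox8b (chr7:148084841-148086345, mm9) had 1536, 1576 and 1762 RPKM in ketogenic hearts and 1782, 1581 and 1632 RPKM in chow hearts, and 0 counts in 5 of the 6 liver libraries with 1 count in the other. None of the 3 passed between the diets in heart, at 0.21, -0.10 and -0.0099. Cox8c had 0 counts in all 18 libraries, and Cox7b2 had 0 to 4 counts in heart and 0 elsewhere, so neither was tested.

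Promoters of 1 isoform pair are shown because its genes are used in different organs, Cox8b in heart and Cox8a in kidney and liver, followed by those of Cox6a1 and Atp5e, the 2 subunit genes that fell in heart. The sequences are RefSeq windows on GRCm38.p6, from 250 bases before to 50 bases after the gene's start, 300 bases written 5′ to 3′ on the gene's strand. Capitals mark matches, on either strand, to the letters CAGCTG of an E-box, CCGGAAG of an ETS factor or GCATGCGC of NRF1. In Cox6a1 the 2 NRF1 matches overlap, because the marked letters hold the motif on both strands.
Cox8b, GRCm38.p6 chr7:140900397-140900696, strand -: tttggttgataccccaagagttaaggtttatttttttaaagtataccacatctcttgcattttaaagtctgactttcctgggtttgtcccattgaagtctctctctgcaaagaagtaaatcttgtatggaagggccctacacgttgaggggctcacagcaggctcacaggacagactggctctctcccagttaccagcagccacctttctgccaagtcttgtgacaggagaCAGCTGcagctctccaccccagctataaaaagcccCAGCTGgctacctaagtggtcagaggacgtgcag
Cox8a, GRCm38.p6 chr19:7217567-7217866, strand -: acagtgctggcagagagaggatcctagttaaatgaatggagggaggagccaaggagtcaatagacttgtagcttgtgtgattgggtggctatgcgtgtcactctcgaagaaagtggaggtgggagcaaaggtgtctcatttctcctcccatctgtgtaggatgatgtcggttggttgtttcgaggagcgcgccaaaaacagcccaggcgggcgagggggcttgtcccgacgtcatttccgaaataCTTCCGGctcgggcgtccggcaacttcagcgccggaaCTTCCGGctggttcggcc
Cox6a1, GRCm38.p6 chr5:115348909-115349208, strand -: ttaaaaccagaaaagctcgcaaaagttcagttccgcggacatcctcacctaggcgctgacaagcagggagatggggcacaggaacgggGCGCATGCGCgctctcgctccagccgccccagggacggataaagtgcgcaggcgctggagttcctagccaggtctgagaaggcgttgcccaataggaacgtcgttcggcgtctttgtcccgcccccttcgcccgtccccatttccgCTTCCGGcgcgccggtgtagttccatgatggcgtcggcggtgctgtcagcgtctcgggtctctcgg
Atp5e, GRCm38.p6 chr2:174464052-174464351, strand -: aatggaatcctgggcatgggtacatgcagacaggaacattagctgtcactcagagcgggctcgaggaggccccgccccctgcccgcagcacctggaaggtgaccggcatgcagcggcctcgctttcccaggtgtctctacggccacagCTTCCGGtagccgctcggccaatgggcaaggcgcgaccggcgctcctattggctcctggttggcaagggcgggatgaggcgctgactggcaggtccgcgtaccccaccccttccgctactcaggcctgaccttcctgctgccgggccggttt

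The Cox8b window held 2 E-box matches and no ETS or NRF1 match, and the Cox8a window 2 ETS matches and no E-box match. Another heart isoform pair, Cox7a1 and Cox7a2, had no E-box, ETS or NRF1 match in either window. Over the 65 subunit genes with a window in the table, 15 (23.1%) held the ETS letters and 10 (15.4%) the NRF1 letters, against 9.12% and 2.81% of all 27025 windows. The E-box letters were in 6 of the 65 (9.23%), against 16.1% of all windows. YY1's AAGATGGCG was in 6 (9.23%) against 1.5%, and TCAAGGTCA of the estrogen-related receptors in 2 (3.08%) against 0.407%. These counts describe letters in a window and were not tested.

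As a share of the summed RPKM of an isoform and its partner, Cox6a2 took 93, 93.3 and 93.4% in ketogenic hearts and 89.1, 89.2 and 87% in chow hearts. Every ketogenic heart was above every chow heart, at 93.3 ± 0.159% (SD, n = 2) in ketogenic hearts and 88.5 ± 1.23% (SD, n = 3) in chow hearts. The partner Cox6a1 (chr5:115795663-115798964, mm9) had 126, 123 and 133 RPKM in ketogenic hearts and 190.1, 195 and 217 RPKM in chow hearts. No values overlapped, and Cox6a1 fell in heart with log2 fold change -0.64 (SE 0.093), edgeR adjusted p = 0.00923, and -0.46 with the length-trend offset, when it still passed. The call was lost without ketogenic replicate 3 and without the summed pair, with the adjusted p at most 0.133 and the log2 fold change between -0.69 and -0.59. Beside it, 5 of 6 macrophage markers and 3 of 5 fibroblast markers fell in heart, with summed macrophage levels of 181 to 189 RPKM in ketogenic and 317 to 349 RPKM in chow hearts. Summed fibroblast levels were 406 to 414 RPKM in ketogenic and 679 to 975 RPKM in chow hearts. Summed erythroid levels were 513 to 1280 RPKM in ketogenic and 2377 to 3239 RPKM in chow hearts, with 0 of 5 passing. Endothelium (246 to 296 against 236 to 322 RPKM), pericyte (375 to 394 against 284 to 487 RPKM) and smooth muscle sums overlapped between the diets, and 0 of their members passed. Des, with 31008 to 39706 counts in ketogenic and 28816 to 33306 in chow hearts, was the largest part of the smooth muscle counts. The median log2 fold change of the 6 smooth muscle genes was -1.28. Acta2 (2042 to 4778 against 8811 to 10458 counts) and Tagln (255 to 339 against 468 to 2464 counts) were lower without overlap. Myh11, Cnn1, Smtn and Des overlapped. The part of these cell types in the result was not tested. In kidney and liver, where Cox6a1 is the main form, it had log2 fold changes of -0.15 and -0.018 and did not pass.

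For Cox7a1 the shares in heart were 84.3, 84 and 85.2% in ketogenic and 82.6, 82.6 and 83.1% in chow libraries, again without overlap, while the partner Cox7a2 had 338, 347 and 338 RPKM in ketogenic hearts and 448, 400.1 and 413 RPKM in chow hearts and did not pass (log2 fold change -0.31, SE 0.094, edgeR adjusted p = 0.0739). For Cox8b the shares were 88.7, 89.4 and 89.9% in ketogenic and 88.8, 87.7 and 86.5% in chow hearts, which overlapped. Cox8a in heart had 195, 188 and 198 RPKM in ketogenic hearts and 224, 222 and 255 RPKM in chow hearts, with a log2 fold change of -0.27 that did not pass. In all 3 pairs the heart isoform took between 82.6 and 93.4% of the pair in heart.

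**Figure D2:**
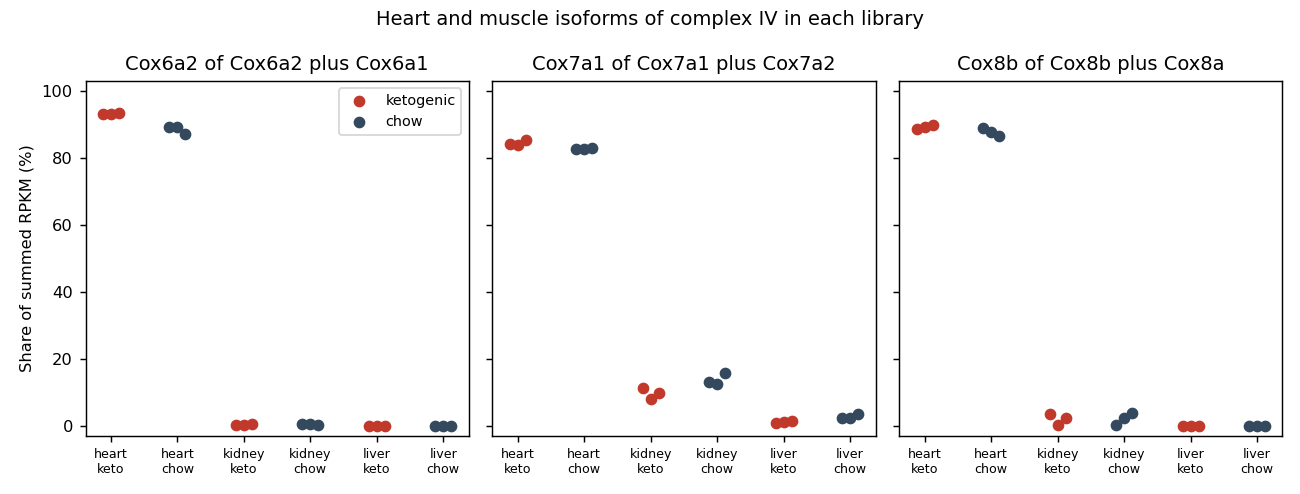
Share of the summed RPKM of a complex IV isoform pair taken by the heart and muscle isoform in each of the 18 libraries, for Cox6a2, Cox7a1 and Cox8b (one point per library, ketogenic red and chow blue). The share is 82.6 to 93.4% in hearts, 0.0866 to 15.8% in kidneys and 0 to 3.37% in livers.

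In kidney, Cox7a1 had 38.3, 30.5 and 32.8 RPKM in ketogenic kidneys and 60.8, 46.1 and 69.3 RPKM in chow kidneys. All ketogenic kidneys were below all chow kidneys, and Cox7a1 fell with log2 fold change -0.81 (SE 0.16), edgeR adjusted p = 0.02, and -0.62 with the length-trend offset, when it was the one subunit gene that passed. Cox4i2 (chr2:152579909-152590773, mm9) had 4, 8 and 4 counts in ketogenic and 16, 20 and 23 counts in chow kidneys. These low counts did not overlap. No ketogenic kidney reached the low-count filter, so Cox4i2 was tested only because the chow kidneys did. Its fitted values, log2 fold change -1.75 (SE 0.43), edgeR adjusted p = 0.0393, describe these counts and support no call. With the offset Cox4i2 had -1.64 and did not pass. Of the genes matched by name only, Ndufa4l2, a gene induced by low oxygen and known from pericytes, also fell in kidney, with 2.75, 2.64 and 2.54 RPKM in ketogenic kidneys and 4.52, 3.58 and 5.03 RPKM in chow kidneys and log2 fold change -0.75 (SE 0.19), edgeR adjusted p = 0.0442. The call of Cox7a1 was lost in 4 of the 6 fits that left out 1 library, with the edgeR adjusted p reaching 0.0977. Cox4i2 did not pass in 4 of the 6 either, with the edgeR adjusted p reaching 0.142.

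Summed markers of 3 other kidney cell types were lower on the ketogenic diet beside these genes, with most members not passing. Summed over 5 fibroblast genes the level was 44.5 to 74.4 RPKM in ketogenic and 146 to 236 RPKM in chow kidneys, and 2 of the 5 fell. Over 7 pericyte genes it was 46.4 to 51.2 RPKM in ketogenic and 57.2 to 79.1 RPKM in chow kidneys with 1 that fell, Pdgfrb, while Abcc9 had 954, 801 and 726 counts in ketogenic and 776, 554 and 809 counts in chow kidneys. Over 6 smooth muscle genes it was 62.3 to 69.1 RPKM in ketogenic and 89.1 to 164 RPKM in chow kidneys with 1 that fell, Des. Summed macrophage markers overlapped, at 45.9 to 59.6 RPKM in ketogenic and 50.5 to 57.7 RPKM in chow kidneys, as did white adipocyte markers, at 17.1 to 185 RPKM in ketogenic and 6.86 to 60.2 RPKM in chow kidneys, and no member of these 2 lists passed. Of 6 hepatocyte markers 3 rose, Cyp2e1, Apob and Serpina1a, with a sum over the 6 of 444 to 866 RPKM in ketogenic and 165 to 198 RPKM in chow kidneys. Alb, Ttr and Cps1 overlapped between the diets and were not called. For Alb there were 194, 220 and 853 counts in ketogenic and 275, 134 and 1418.8 counts in chow kidneys. The pericyte and smooth muscle lists were added after the values of the subunit genes were seen. Their part in the results for Cox7a1, Cox4i2 and Ndufa4l2 was not tested.

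Cox8b in kidney varied between libraries within each diet, with 21.7, 0.538 and 14.4 RPKM in ketogenic kidneys and 1.48, 16 and 25 RPKM in chow kidneys, and did not pass (-0.22, SE 1.32). The brown fat gene Ucp1 varied with it, at 275, 4 and 672 counts in ketogenic and 72, 421 and 619 counts in chow kidneys, where Cox8b had 176, 4 and 131 counts in ketogenic and 13, 140 and 228 counts in chow kidneys. The library lowest in the one gene was also lowest in the other in each diet, and the part of brown fat in these Cox8b values was not tested. Cox6a2 in kidney had 0.68, 1.7 and 2.12 RPKM in ketogenic and 3.08, 2.96 and 2.05 RPKM in chow libraries and did not pass.

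Cox6b2 (chr7:4703396-4704696, mm9), the testis-associated form of the subunit that Cox6b1 provides elsewhere, had low counts in all 3 organs and passed in heart and kidney, in different directions. In heart it had 54, 53 and 48 counts in ketogenic and 13, 16 and 19 counts in chow libraries, with log2 fold change 1.94 (SE 0.29), edgeR adjusted p = 0.0102. In kidney it had 79, 81 and 133 counts in ketogenic and 176, 181 and 147 counts in chow libraries, with log2 fold change -0.70 (SE 0.19), edgeR adjusted p = 0.0487. In liver it had 0, 4 and 3 counts in ketogenic and 11, 27 and 9 counts in chow libraries, and no ketogenic liver sample reached the low-count filter, so it was tested there only because the chow livers did. The fitted liver values, log2 fold change -2.43 (SE 0.66), edgeR adjusted p = 0.0145, describe these counts and support no call. The diets did not overlap in any organ, higher on the ketogenic diet in heart and lower in kidney and liver. The calls were lost without ketogenic replicate 3 or without the summed pair in heart, without ketogenic replicate 2 or any 1 chow replicate in kidney, and without ketogenic replicate 1 or the summed pair in liver, where it did not pass the low-count filter without chow replicate 1 or chow replicate 2. With all 6 libraries as separate samples it did not pass the low-count filter in liver. It made up at most 1.66% of the RPKM of Cox6b1 and Cox6b2 together in any library. Cox6b1 itself had 669, 665 and 553 RPKM in ketogenic livers and 466, 490.5 and 457 RPKM in chow livers. It rose in liver with log2 fold change 0.40 (SE 0.11), edgeR adjusted p = 0.0118, but had -0.21 with the length-trend offset, when it did not pass, and the call without the offset was lost without the summed ketogenic pair.

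Complex V, the ATP synthase, has a catalytic F1 head and a membrane Fo part joined by stalks. In liver 7 of its 10 Fo and stalk genes rose and 1 fell, and 2 of its 5 F1 genes rose and 0 fell. With the length-trend offset these counts were 3 up and 3 down, and 2 up and 2 down. Atp5e (chr2:174286576-174289602, mm9), the epsilon subunit of the F1 central stalk, had 838, 905 and 665 RPKM in ketogenic livers and 198, 248 and 185 RPKM in chow livers. The ketogenic livers were above the chow livers, with log2 fold change 1.90 (SE 0.15), edgeR adjusted p = 3.1e-05, the largest rise of any subunit gene in liver, and 1.22 with the offset. Atp5a1, the alpha subunit of the catalytic hexamer, had 543, 546 and 562 RPKM in ketogenic livers and 669, 669 and 694 RPKM in chow livers. Atp5b, the beta subunit, had 871, 890.1 and 866 RPKM in ketogenic livers and 989, 957 and 1003 RPKM in chow livers. Their ketogenic livers were below their chow livers, by log2 fold changes of -0.26 and -0.14 that did not pass, and Atp5a1 fell with the offset, at -0.28.

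Atp5k, the Fo subunit e that helps synthase dimers form, had 275, 348 and 269 RPKM in ketogenic livers and 131, 142 and 142 RPKM in chow livers. No values overlapped, with log2 fold change 1.09 (SE 0.10), edgeR adjusted p = 2.15e-05, and 0.46 with the length-trend offset. Atp5g1, Atp5g2 and Atp5g3 encode one and the same mature c subunit of the Fo ring. Atp5g1 had 152, 147 and 153 RPKM in ketogenic livers and 220.4, 228 and 219 RPKM in chow livers. It fell in liver with log2 fold change -0.53 (SE 0.092), edgeR adjusted p = 0.00122, and -0.88 with the offset, every ketogenic liver below every chow liver. Atp5g1 took 18.1, 16.8 and 19% of the summed RPKM of the 3 genes in ketogenic livers and 24.9, 25.5 and 24.6% in chow livers, while Atp5g3 took 67.2 to 69.8% in ketogenic and 61.2 to 61.4% in chow livers. The sum of the 3 was 808 to 876 RPKM in ketogenic and 885 to 893 RPKM in chow livers. In kidney Atp5g1 had 175, 188 and 176 RPKM in ketogenic kidneys and 221, 213 and 218 RPKM in chow kidneys and a log2 fold change of -0.29 that did not pass (edgeR adjusted p = 0.0502).

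In heart, Atp5e was the second subunit gene that fell, in the opposite direction to liver, with 890.2, 876 and 823 RPKM in ketogenic hearts and 1349.9, 1141 and 1161 RPKM in chow hearts. All ketogenic hearts were below all chow hearts, with log2 fold change -0.52 (SE 0.11), edgeR adjusted p = 0.0298. With the length-trend offset it had -0.31 and did not pass, and the call was also lost without ketogenic replicate 3, the summed pair, chow replicate 1 or chow replicate 2 (adjusted p at most 0.262). In kidney it had 537, 586 and 569 RPKM in ketogenic kidneys and 908, 568 and 829 RPKM in chow kidneys, and -0.47 did not pass. Chow kidney replicate 2 lay within the ketogenic range for Atp5e, as it did for Uqcrh, which had 407, 432 and 385 RPKM in ketogenic kidneys and 620.5, 432 and 554 RPKM in chow kidneys, and for Ndufa4, which had 698, 809 and 671 RPKM in ketogenic kidneys and 982, 694 and 933 RPKM in chow kidneys.

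Among the other 4 genes that match by name only, Cox7a2l, a supercomplex assembly factor known in a shortened form in C57BL/6J mice, had 96.6, 95.7 and 86.3 RPKM in ketogenic livers and 69.9, 72.1 and 67.4 RPKM in chow livers. It rose in liver with log2 fold change 0.41 (SE 0.095), edgeR adjusted p = 0.00597, and had 0.18 with the length-trend offset, when it did not pass. Atp5s, a coupling factor, had 6.08, 5.33 and 6.54 RPKM in ketogenic livers and 3.13, 2.93 and 3.32 RPKM in chow livers, and rose with log2 fold change 0.99 (SE 0.18), edgeR adjusted p = 0.00138. It also rose with the offset, at 0.86. Cox4nb, a subunit of the ER membrane complex with no part in respiration, rose in liver by 0.34 on the log2 scale, and Atp5sl had 0.24 and did not pass. Besides Ndufa4l2 in kidney, none of the 5 passed in heart or kidney.

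The diet difference varied with exon length in all 3 organs, shorter subunit genes lying higher in liver and lower in heart and kidney. Across subunit genes Spearman's rho between exon length and log2 fold change was 0.41 in heart (78 genes), 0.47 in kidney (78 genes) and -0.47 in liver (75 genes), given as a description of genes that share libraries. Across the other genes tested it was 0.17 in heart, 0.082 in kidney and -0.22 in liver. With GC content, rho was -0.017 in heart, 0.15 in kidney and -0.31 in liver. In liver the 15 subunit genes up to 500 bases had a median of 0.86 and 13 of them rose, and the 12 over 1500 bases had a median of 0.0063 and 4 rose. Other liver genes up to 500 bases had a median of 0.48, and those over 1500 bases -0.033. In heart, subunit genes up to 500 bases had a median of -0.12 and those over 1500 bases 0.17, and other genes of the same lengths had -0.35 and -0.008. In kidney the subunit medians were -0.27 and 0.037, and those of other genes -0.17 and 0.015. With the length-trend offset, other genes up to 500 bases had a median of -0.13 in liver, -0.13 in heart and -0.0062 in kidney. Subunit genes up to 500 bases then had 0.23 in liver, 0.090 in heart and -0.072 in kidney. Among other genes up to 500 bases the offset thus left part of the length dependence in heart, and turned the median from above 0 to below 0 in liver.

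**Figure D3:**
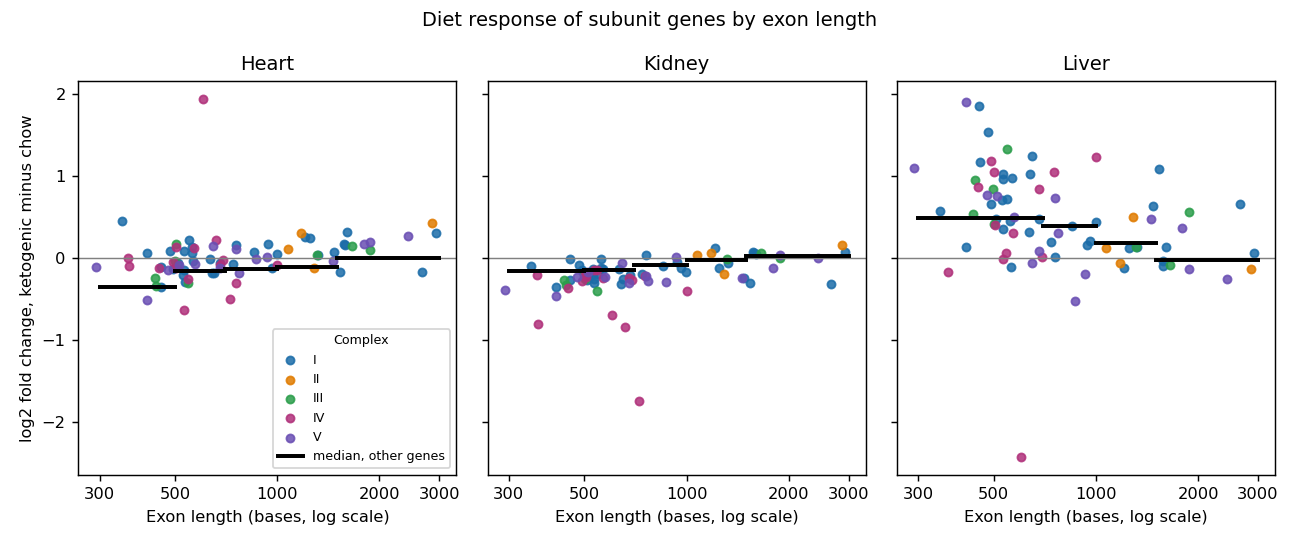
Log2 fold change, ketogenic minus chow, of each subunit gene against its exon length in bases (log axis) in heart, kidney and liver, coloured by complex, with black bars for the median of all other genes in 5 length classes. In liver the bar is at 0.48 for genes up to 500 bases and at -0.033 over 1500 bases, and in heart at -0.35 and -0.008.

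The same dependence could be read in each library. The mean log2 RPKM of 40 subunit genes up to 700 bases minus that of 22 over 1000 bases was 0.65 to 0.8 in ketogenic livers and 0.20 to 0.29 in chow livers. For 263 and 9571 other genes of the same lengths the difference was 2.91 to 3.2 in ketogenic livers and 2.43 to 2.53 in chow livers. In heart it was 0.23 to 0.26 in ketogenic and 0.38 to 0.54 in chow libraries for subunit genes, and for other genes 2.79 to 2.84 in ketogenic and 3.06 to 3.17 in chow libraries. In both organs the diets did not overlap, for subunit genes or for others, and the chow livers were the lowest of all 18 libraries in short non-respiratory genes. Chow kidney replicate 2, at 0.77 for subunit genes, lay among the ketogenic kidneys (0.7 to 0.79), and the other 2 chow kidneys had 0.95 and 1.0. The labels give an RNA integrity number above 4 as the limit and no value per library, and the part of RNA quality in these values was not tested.

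**Figure D4:**
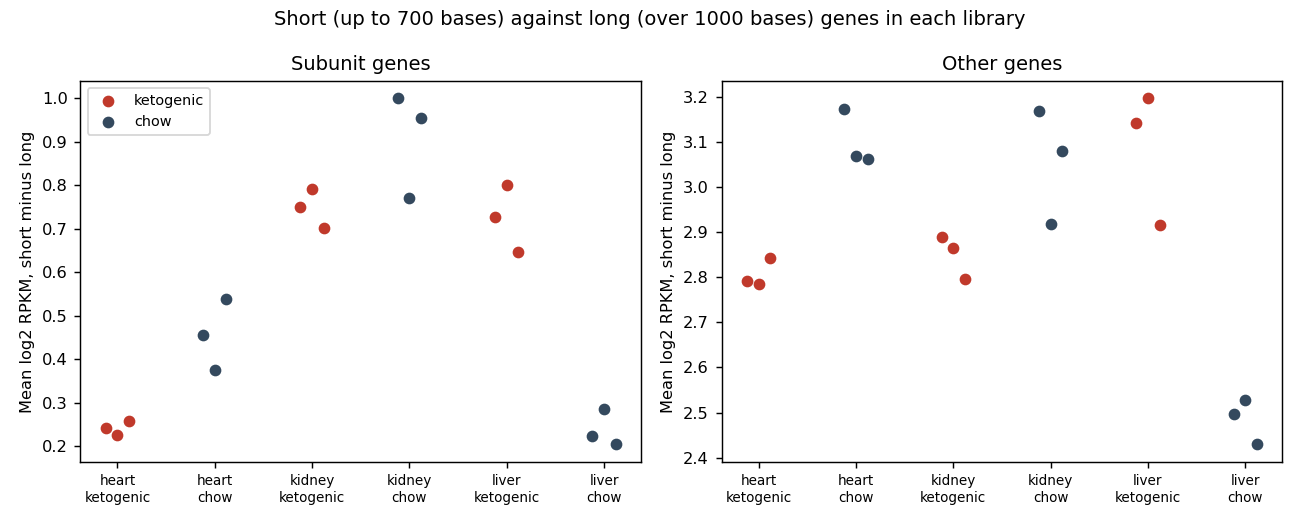
Mean log2 RPKM of genes up to 700 bases of exon minus that of genes over 1000 bases in each of the 18 libraries (one point each, ketogenic red and chow blue), for subunit genes and for other genes, on axes that do not start at 0. Ketogenic livers (0.65 to 0.8 for subunit genes) lie above chow livers (0.2 to 0.29), and ketogenic hearts (0.23 to 0.26) below chow hearts (0.38 to 0.54).

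Subunit genes that kept a difference with the length-trend offset in liver did so on both sides of 0. Beside Atp5e, Ndufb4, Cox7b, Ndufa7 and Ndufs4, the 23 that rose in the fits with no offset, with length and with length and GC included Uqcrh, Ndufb9, Cox7a2 and Ndufa11, an accessory subunit on a 2661-base transcript, at 0.65 and 0.66 with the offset. Atp5g1 fell in all 3 fits. Cox6b2 also passed as lower in all 3, but no ketogenic liver sample reached the low-count filter, so its values support no call. With the offset 12 more fell, 3 of them the complex IV genes Cox5a, Cox6a1 and Cox8a and 4 the complex V genes Atp5a1, Atp5d, Atp5g2 and Atp5g3. Ribosomal protein genes are short as well. Of 77 cytosolic ribosomal protein genes in liver 51 rose and 6 fell, at a median of 0.56, and with the offset 31 rose and 22 fell, at 0.15. Of 76 mitochondrial ribosomal protein genes 46 rose and 1 fell, at 0.39, and with the offset 27 rose and 11 fell, at 0.15.

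**Figure D5:**
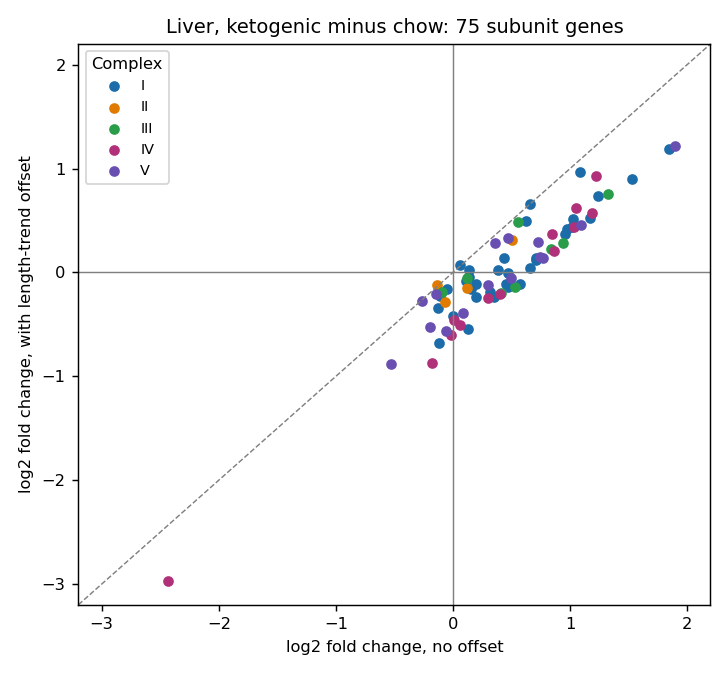
Log2 fold change in liver, ketogenic minus chow, of the 75 subunit genes tested, without an offset (horizontal) and with the length-trend offset (vertical), coloured by complex, with the dashed line marking equal values. Most points lie below the line, Atp5e at 1.9 and 1.22, Cox6b2 at -2.43 and -2.97, and the median is 0.44 without and -0.041 with the offset.

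Whether the diet difference itself differed between organs was tested in 1 model of all 3 organs. Between heart and kidney 1 of 78 subunit genes differed, Cox6b2, higher in heart by 2.65 (SE 0.42, edgeR adjusted p = 0.00459), where 1.41% of all genes tested were higher and 1.08% lower. At an unadjusted p under 0.05, 1 was lower (edgeR). The next 4 by p did not pass: Ndufa3 at 0.55 (SE 0.14, edgeR adjusted p = 0.053), Cox6a1 at -0.48 (SE 0.12, edgeR adjusted p = 0.0556), Cox7a1 at 0.72 (SE 0.21, edgeR adjusted p = 0.0764) and Cox4i2 at 1.25 (SE 0.40, edgeR adjusted p = 0.118). With the length-trend offset Ndufa3 and Cox6a1 passed as well, at 0.55 and -0.49, so 2 were higher and 1 lower, beside 1.41% and 1.19% of all genes.

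Between heart and liver, 36 subunit genes had a lower diet difference in heart and 4 a higher one, where 11.2% and 12.3% of all genes tested did. The 4 included Cox6b2, whose value rests on its low liver counts. Between kidney and liver, 48 were lower in kidney and 1 higher, where 10.6% and 11.2% of all genes were. The heart-minus-liver median was -0.43, but 0.11 with the length-trend offset within each organ, and the kidney-minus-liver median was -0.62, and -0.049 with that offset. With the offset the counts were 15 lower and 19 higher in heart (9.95% and 11.3% of all genes) and 24 lower and 9 higher in kidney (9.06% and 10.6%). For Atp5e the difference was -2.37 (SE 0.26, edgeR adjusted p = 5.19e-05) for heart minus liver and -2.33 (SE 0.24, edgeR adjusted p = 4.56e-05) for kidney minus liver, and -1.63 and -1.56 with the offset. For Ndufs4 it was -1.22 (SE 0.16, edgeR adjusted p = 0.000183) and -1.36 (SE 0.16, edgeR adjusted p = 7.08e-05), and -1.06 and -1.25 with the offset. Both genes passed in both fits. Cox7a2 in liver had 306, 311 and 281 RPKM in ketogenic livers and 151, 149 and 137 RPKM in chow livers, and in kidney it had 299.5, 353 and 303 RPKM in ketogenic kidneys and 403, 327 and 369 RPKM in chow kidneys. Its diet difference was lower in heart than in liver, at -1.31 (SE 0.16, edgeR adjusted p = 7.68e-05), and lower in kidney than in liver, at -1.24 (SE 0.15, edgeR adjusted p = 8.71e-05). The 2 comparisons with liver share the liver libraries.

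On chow, most subunit transcripts were more abundant in heart than in kidney and least abundant in liver, but kidney and liver did not differ in this way in every class. Heart was above kidney for 72 of 78 subunit genes and below it for 3, where 34.7% of all genes tested were higher and 37.8% lower. Heart was above liver for 75 and below for 2 (40.2% and 37% of all genes), and kidney was above liver for 56 and below for 4 (41% and 34%). The median log2 differences were 1.25, 1.75 and 0.68. For kidney against liver the median was 1.00 in the 16 genes tested up to 500 bases, with 15 higher and 0 lower. In the 12 over 1500 bases it was 0.12, with 4 higher and 2 lower. Of the 7 complex I core genes 2 were higher and 0 lower, and of the 5 F1 genes 2 were higher and 1 lower. Genes up to 700 bases took 5.69 to 6.14% of counts in chow hearts, 5.66 to 7.66% in chow kidneys and 2.18 to 2.46% in chow livers, and the part of this in the organ levels was not tested. By complex, the geometric mean level of the 35 complex I genes was 344 ± 7.56 RPKM in ketogenic hearts (SD, n = 2) and 339 ± 27.6 RPKM in chow hearts (SD, n = 3), 136 ± 5.42 RPKM in ketogenic kidneys (SD, n = 3) and 148 ± 9.49 RPKM in chow kidneys (SD, n = 3), and 134 ± 10.9 RPKM in ketogenic livers (SD, n = 2) and 95.1 ± 2.45 RPKM in chow livers (SD, n = 3). For the 15 complex V genes it was 867 ± 27.1 RPKM in ketogenic hearts (SD, n = 2) and 882 ± 65.8 RPKM in chow hearts (SD, n = 3), 316 ± 11.8 RPKM in ketogenic kidneys (SD, n = 3) and 358 ± 19.2 RPKM in chow kidneys (SD, n = 3), and 323 ± 20.4 RPKM in ketogenic livers (SD, n = 2) and 252 ± 4.47 RPKM in chow livers (SD, n = 3). For the 4 complex II genes in liver it was 225 ± 4.93 RPKM in ketogenic livers (SD, n = 2) and 214 ± 4.98 RPKM in chow livers (SD, n = 3). In chow kidneys the complex II level was 204 ± 1.83 RPKM (SD, n = 3), below that of chow livers. The genes lower in heart than in kidney were Cox6a1, Cox8a and Cox6b2, and the first 2 of these were also those lower in heart than in liver.

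Other genes, outside the symbol rule, build or serve the complexes, and some of them also encode subunits. For these lists the shares of all genes tested that rose and fell were 19.2% and 17.6% in liver, 6.25% and 5.81% in heart, and 3.59% and 5.45% in kidney. With the length-trend offset the liver shares were 17.6% and 19.1%. In liver 3 of 10 genes on the complex I assembly list rose and 0 fell, and 2 rose and 0 fell with the offset. Ndufaf4 had 0.88 and Tmem126b 0.83 without it. Ndufab1, the acyl carrier protein that is also a subunit of complex I, rose by 0.32, which became -0.082 with the length-trend offset. Of 16 complex IV assembly genes 6 rose and 1 fell in liver, and 4 rose and 4 fell with the offset. Cox19 and Cox16 had 1.07 and 1.00, and 0.64 and 0.94 with the offset. In heart Cox17, which carries copper to complex IV, rose by 0.48, and Higd1a, a hypoxia-inducible assembly factor, fell by 0.35 on the log2 scale, but had -0.29 and did not pass with the offset. In kidney Surf1, a factor for haem insertion whose loss is known to cause Leigh syndrome in people, rose by 0.34. Of 6 ATP synthase assembly and inhibitor genes 3 rose and 0 fell in liver, with and without the offset. Among them Usmg5, a small synthase-associated protein, had 1.73, and 1.05 with the offset. In kidney 1 of the 6 fell, 2010107E04Rik, at -0.51, which had -0.33 and did not pass with the offset.

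Electron carriers outside the complexes included genes that rose in heart. Coq10b, a coenzyme Q-binding protein, was higher on the ketogenic diet in all 3 organs, at 1.08 in heart, 0.67 in kidney and 2.23 in liver, and at 1.15, 0.68 and 2.14 with the offset. In heart Etfdh and Etfa, which pass electrons from fatty acid oxidation to coenzyme Q, also rose, at 1.06 and 0.52, so 3 of 16 rose and 0 fell there. In liver 7 of the 16 rose and 1 fell, Adck3, a coenzyme Q synthesis gene, at -1.26. With the length-trend offset 6 rose and 2 fell there. Of 13 nuclear regulators of these genes 4 rose in heart: Esrrb at 0.59, Esrrg at 0.54, Ppargc1a at 0.45 and Ppara at 0.38, of which the last 2 did not pass with the length-trend offset. In liver Ppara and Esrra rose, at 0.61 and 0.41, and Gabpb2 fell, at -0.30, but had -0.17 and did not pass with the offset. In kidney Ppard fell, at -0.85. Of 15 genes for mitochondrial DNA expression 2 rose in heart, Peo1 at 0.59 and Tfb2m at 0.60. In liver 7 of the 15 rose and 3 fell, and 5 rose and 3 fell with the offset. Among 27 other mitochondrial proteins 1 rose in heart, the chaperone Hspd1 at 0.74, and 1 fell in kidney, the adenine nucleotide carrier Slc25a4 at -0.48. In liver 8 of the 27 rose and 3 fell, and 6 rose and 6 fell with the offset.

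Beside the liver results, 4 of 6 hepatocyte markers fell and 1 rose, and their summed level was 49595 to 53173 RPKM in ketogenic livers and 75366 to 81909 RPKM in chow livers, without overlap. The members that fell included Alb and Cps1, and Cyp2e1 was the one that rose. Summed macrophage markers in liver overlapped between the diets, at 183 to 335 RPKM in ketogenic and 181 to 220 RPKM in chow livers, and 0 of 6 passed. Of 5 fibroblast markers 2 fell, Col1a1 at -1.82 and Col3a1 at -1.65, and 1 rose, Dcn at 0.36, with a sum of 110 to 130 RPKM in ketogenic and 130 to 139 RPKM in chow livers. White adipocyte markers summed to 97.3 to 184 RPKM in ketogenic and 6.66 to 8.94 RPKM in chow livers. Of these 6, 2 were tested and rose, Lipe at 0.72 and Cfd, which had 2256, 2209.5 and 1044 counts in ketogenic and 1, 2 and 1 counts in chow livers, while Adipoq had 0, 2 and 1 counts in ketogenic and 0 in every chow liver. Of the 5 pericyte markers tested 3 rose and 1 fell, with a sum of 37.7 to 40.3 RPKM in ketogenic and 25.7 to 33 RPKM in chow livers. In each of the smooth muscle, endothelium and erythroid lists 1 fell, Smtn at -0.77, Cdh5 at -0.55 and Slc4a1 at -2.60. The part of these levels in the subunit results was not tested.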

How the data were processed

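The files hold estimated counts per gene for each library, deposited by the authors: per the file headers and the submitters' processing notes, reads were aligned with HISAT2 2.1.0 and assigned to exons of mm9 with featureCounts 1.5.0, with pairs counted once, a reverse-stranded setting, and reads that map or overlap several genes split into fractions. These expected counts were rounded to whole numbers. The near-identical ketogenic replicates 1 and 2 were summed in heart and in liver. Each organ was fitted alone with edgeR 4.0.16 (R 4.3.3) after filterByExpr and TMM scaling, ketogenic against chow, by quasi-likelihood test with Benjamini-Hochberg adjustment over all genes tested, at 0.05. Differences between organs came from 1 model of all organs. RPKM used exon lengths in the files. The length-trend offset is a lowess fit (span 0.3) of each library's log2 deviations on exon length, and GC content could be matched for 20204 of the 22609 genes. DESeq2 1.42.0, limma-voom 3.58.1, other scalings and filters, a replicate block and leaving out each library were the alternatives. The fits were tested on simulated data, where at 13502 genes in the heart comparison 26.9% of genes changed 1.5-fold and 83.6% of genes changed 2-fold were recovered and 12.3% of calls were false. At 1.5-fold 61.2% were recovered in kidney (14423 genes, 9.78% of calls false) and 50.7% in liver (13056 genes, 9.44% false). All 3 shares of false calls were above the adjusted p threshold of 0.05, and the simulated counts held no trend on exon length.

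The genes and lists were chosen with earlier results of these data known. The genes named are the complex IV isoforms, up to 2 per complex, organ and direction with the smallest adjusted p, up to 5 per organ difference, those that passed in several organs and, in each other list, up to 4 per organ. Other genes named, such as the complex I core genes and those changed by the offset, were chosen after their values were seen. Promoters are from RefSeq, where 65 of 80 subunit genes matched. Ndufs5 overlaps another gene on the same strand, and its counts may be split. Library totals were 16135276 to 23835383 counts, and intervals for single counts were not computed because samples were replicated.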

Additional observations from a re-analysis of the deposited data

Results flagged for a closer look

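The diet difference itself differed between organs for 1 subunit gene between heart and kidney, 40 between heart and liver and 49 between kidney and liver, by the test of the difference in 1 edgeR model. Between heart and kidney the gene was Cox6b2, at 2.65 on the log2 scale. For heart minus liver the differences were -2.37 for Atp5e, -1.60 for Uqcrh, -1.31 for Cox7a2 and -1.22 for Ndufs4, and 4.41 for Cox6b2, whose fitted size rests on 0, 4 and 3 counts in ketogenic livers and 11, 27 and 9 counts in chow livers. For kidney minus liver they were -2.33 for Atp5e, -1.71 for Uqcrh, -1.59 for Ndufa7, -1.36 for Ndufs4 and -1.24 for Cox7a2. Groups of 3 libraries are too small to test for a library far from the others.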

How the results depend on the processing

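In liver, counts of subunit genes that rose stayed within 1.5 times of 46 under every change of tool, scaling, filter, threshold or library, and moved with the length-trend offset, to 25 that rose and 14 that fell (median -0.041). Offsets chosen after seeing the data gave 23 and 12 with GC content (median -0.00052) and 27 and 14 with the trend fitted without respiratory and ribosomal protein genes (median -0.019). In heart the same 3 offsets gave 4, 5 and 4 that rose and 1 each that fell (medians 0.13, 0.12 and 0.14), and in kidney 1, 2 and 2 that fell (medians -0.064, -0.075 and -0.082). Of the 75 liver subunit genes 24 turned sign with the length-trend offset, 23 with GC content included and 21 with both, and of the 46 that rose 12, 12 and 11 did. Among the genes named by the rule, 4 turned sign with all 3 offsets, in the same order: Cox6b1 (-0.21, -0.17, -0.17), Cox8a (-0.51, -0.30, -0.47), Ndufa3 (-0.11, -0.063, -0.040) and Ndufc1 (-0.55, -0.69, -0.49). An offset within each organ, also chosen after seeing the data, gave 2 higher and 1 lower for heart minus kidney, 19 and 15 for heart minus liver, and 9 and 24 for kidney minus liver. Total-count scaling gave 1 that rose and 13 that fell in heart (median -0.16, with 3.41% and 10.5% of all genes), 17 that fell in kidney (7.83% of all genes), 1 lower for heart minus kidney, 1 higher for heart minus liver, 0 higher for kidney minus liver, and on chow 1 lower for heart minus liver and 0 lower for kidney minus liver. DESeq2 gave 5 and 7 in heart (9.23% and 7.92% of all genes) and 17 that fell in kidney (7.02%). Counting every library separately gave 3317 genes in heart (12.5% of all genes higher and 12.2% lower), with 5 subunit genes up and 10 down. It gave 842 genes for heart minus kidney, with 2 and 1. One model of all libraries gave 5 and 1 in heart (8.41% and 6.7% of all genes). A CPM filter left 1 that rose in heart and 1 that fell in liver. Where a count in this section stands without the share of all genes, it shows only how far the count moved. Such counts were not set against the background. A threshold of 0.1 gave 2835 genes in heart, with 4 and 8, and 2336 in kidney, with 12 that fell. Without the summed ketogenic pair, heart had 1 gene, with 0 and 0, and liver 2645 genes, with 1 that fell.

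Leaving out 1 library at a time gave 89 to 3742 genes in heart (1 without the pair), with 0 to 7 subunit genes up and 0 to 18 down, 412 to 3402 in kidney, with 0 to 12 down, and 2645 to 4759 in liver, with 1 to 2 down. It gave 131 to 674 genes for heart minus kidney, with 1 to 2 higher and 0 to 1 lower, 2 to 6 higher for heart minus liver, 0 to 1 higher for kidney minus liver, and on chow 2 to 5 lower for kidney minus liver. The causes were not tested.

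Replicate numbers did not pair the samples: same-numbered ketogenic and chow libraries of an organ correlated at -0.119 to 0.0824. Same-numbered chow hearts and kidneys correlated at 0.0792 to 0.162, not all above 0.1, and the other pairs across organs at -0.0904 to 0.0832. The replicate block took every library as a separate sample, with the near-identical pairs not summed. It gave 2732 genes in heart, with 7 subunit genes down (10.7% of all genes), and 810 in kidney, with 1 down (3.35%). Between organs the block was diet and replicate number together. There it gave 709 genes for heart minus kidney, with 2 subunit genes higher and 1 lower, and 0 subunit genes higher for kidney minus liver.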
